A study of Eumeta variegata with 6 samples.

Results

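Sex determination and dosage compensation genes were followed by RNA sequencing of head tissue from Eumeta variegata, a bagworm moth, with 3 libraries from males and 3 from females. The members were the assembled sequences whose NR or Swiss-Prot protein description holds one of 14 names of such genes, and there were 19 of them among 41283 sequences. The labels give the sex and the tissue, head, and neither age, stage nor a treatment. Whether each library is a separate animal or a pool is not stated, so the p-values below measure only the spread between these libraries, which may be technical.

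In moths the male carries a pair of Z chromosomes and the female a Z and usually a W. In the silkworm Bombyx mori, a small RNA from the W destroys the messenger of Masculinizer, and in males the Masculinizer protein drives both the male splice form of doublesex and the balancing of Z-linked expression. The RNA-binding proteins IMP and PSI take part in the male splicing step there. In Drosophila the order is different: Sex-lethal and transformer, with its partner Transformer-2, control the splicing of doublesex and fruitless, and the MSL complex raises the output of the single male X by acetylating histone H4.

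The descriptions covered part of this pathway. The members fell to IMP (3 sequences), Transformer-2 (1), Sex-lethal (4), doublesex-related DMRT factors (4), fruitless (3), MSL3 (1), MSL1 (2) and the acetyltransferase KAT8, the MOF of Drosophila (1). The names masculinizer, P-element somatic inhibitor, intersex, dissatisfaction, maleless, males-absent and female lethal, 7 of the 14, matched no description. Such a gene can still be present under other words in its description. Both databases gave the name for 7 members, NR alone for 7 and Swiss-Prot alone for 5. All these names come from similarity to proteins of other species. The sequences themselves were not used here, so none is shown.

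Values are FPKM as the authors calculated them, that is, fragments divided by the length of the sequence and the total of the library. Depth is unknown, since FPKM carries no read totals. Ratios of values below 0.5 FPKM between libraries formed no sharp steps of whole reads: at most 8.59% of them fell in 1 window of 0.02 log2 units, so read numbers were not recovered. Of the 19 members, 15 reached an FPKM of 1 in at least 3 of the 6 libraries and were tested, and 4 were not. The log2 fold changes are male minus female on the log2(FPKM + 1) scale, which understates changes of low sequences. A sequence is said to be called when limma's two-sided test, adjusted by Benjamini-Hochberg over all 35198 sequences tested, gave an adjusted p below 0.05.

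Library sums were 480295 to 492028 FPKM. The libraries formed 2 sets that were not the sexes. In male 2, male 3 and female 2 zeros were rarer among sequence names with the ending 1. In the other libraries they were rarer among those with the ending 2. Differences within these sets are therefore given beside the calls among members. For the related lists a fit with the sets as a term is given instead. Among tissue markers, the summed FPKM of 9 sequences matched by neuronal names was 96.2 to 103.7 in males and 94.7 to 108.4 in females. In each sex 1 was called higher. The words also took in CUGBP Elav-like family members 1 and 4, listed below among splicing regulators. Member 1, the female call, had 27.2 to 31.9 FPKM in males and 36.9 to 43.5 FPKM in females. The sum is therefore not one of neuronal markers alone. The sum of 23 sequences with opsin, rhodopsin or arrestin names was 134 to 137 in males and 114 to 125 in females, without overlap. Of these, 1 was called higher in males. The sum of 4 glial sequences was 28.1 to 31.7 in males and 31.6 to 39.0 in females, with 1 called higher in females, and that of 16 muscle sequences 814 to 858 and 750 to 838, with 3 called higher in males and 2 in females. The sum of 3 hemocyte sequences, none called, spread from 47.0 to 166 in males and from 97.7 to 217 in females, and that of 18 sequences with gonad names, 1 of them called higher in males, was 86.1 to 94.2 and 87.9 to 90.96. None of the matched markers was at 0 in all libraries. The sum of 15 fat body and hemolymph sequences was 39.4 to 46.4 in males and 102 to 122 in females, with 3 of them called higher in females. The part of tissue makeup in the differences below was not tested, and in whole heads fewer cells of a type and less RNA per cell cannot be told apart.

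In male heads the leading difference was a higher level of IMP. A second one was a higher level of MSL3, the chromodomain subunit of the MSL complex. That call was lost when any one of the 6 libraries was left out. Transformer-2, the most abundant member, was not called. Of the 15 members tested, 3 were called higher in males and none in females, where 4.40% of all sequences tested were called higher in males and 2.70% in females. These 3 are 20% of the members tested, but the pair of IMP sequences among them may stand for 1 gene. Without the adjustment, the same number of members, 3, had a limma p below 0.05, which is 20% of the members tested, where 23.3% of all sequences tested had one. By that measure the members' share is near the background. Male and female values were fully separate in 5 members, all with males higher, which is 33.3% of those tested; of all sequences tested, 18.2% were separate with males higher, and 30.2% in either direction. The median log2 fold change was 0.17 in the members and 0.05 in all sequences tested. With libraries scaled by the median of ratios, which moves the share of male calls among all sequences from 61.9% to 51.4%, the same count of 3 members was called.

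**Figure D1:**
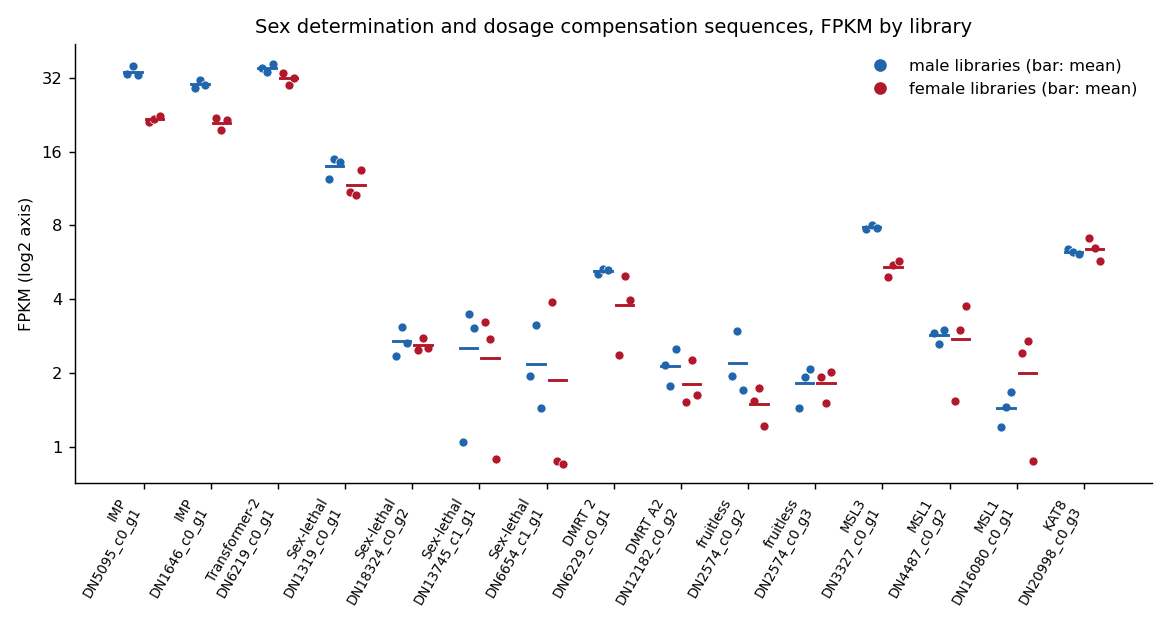
FPKM of the 15 tested members in each library on a log2 axis, with males in blue, females in red and the mean of each sex as a bar. Both tested IMP sequences and MSL3 lie higher in every male library than in any female library, and Transformer-2 and the IMP sequences are the most abundant.

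IMP is the insect counterpart of the vertebrate IGF2 mRNA-binding proteins, which bind messengers through KH domains and control where and how long they are used. In the silkworm its gene lies on the Z chromosome and a male isoform takes part in the male splicing of doublesex. TRINITY_DN5095_c0_g1_i35_1, which carries KH domains and an RNA recognition motif in the authors' Pfam annotation, had 33.2, 35.7 and 32.8 FPKM in males 1, 2 and 3. It had 21.2, 21.8 and 22.3 FPKM in females 1, 2 and 3. The lowest male lay well above the highest female. The means were 33.9 ± 1.57 and 21.7 ± 0.54 FPKM (SD, n = 3 each), 1.56 times as high in males. The log2 fold change of 0.62 had an SE of 0.05 and a limma adjusted p of 0.0032. The difference was 0.63 between males 2 and 3 and female 2, and 0.59 between male 1 and females 1 and 3.

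The second IMP sequence, TRINITY_DN1646_c0_g1_i5_2, has KH domains without the recognition motif in that annotation. It had 29.1, 31.3 and 29.9 FPKM in the males and 21.9, 19.6 and 21.4 FPKM in the females. The sexes again did not overlap. Males had 1.44 times the female level, and the log2 fold change was 0.50 (SE 0.06, limma adjusted p = 0.0080). Within the library sets it was 0.62 and 0.41. The ratio of the first to the second sequence lay between 1.09 and 1.14 in males and between 0.97 and 1.11 in females, and the sexes' ratios overlapped (exact two-sided permutation p = 0.20). The pair has the same Swiss-Prot description but different NR entries, so it is unknown whether they are 2 genes, 2 isoforms or 2 assemblies of 1 gene that share reads.

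The last IMP sequence, TRINITY_DN5095_c1_g1_i1_1, holds only an RNA recognition motif and stayed under the filter. It had 1.32, 0.77 and 0.71 FPKM in males, and it was listed at 0 in females 1 and 2 and at 0.37 in female 3. All 3 males lay above all 3 females. Fitted without a filter, its log2 fold change was 0.78 (SE 0.25, limma adjusted p = 0.14), so it was not called.

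Transformer-2 is an RNA-binding splicing factor that in Drosophila acts with transformer on doublesex. TRINITY_DN6219_c0_g1_i12_2 was the most abundant member, with a mean FPKM above that of 95.1% of the sequences tested. It had 35.1, 33.8 and 36.4 FPKM in males and 33.5, 29.9 and 32.1 FPKM in females. The lowest male and the highest female were nearly equal. The log2 fold change was 0.14 (95% interval -0.0039 to 0.28, limma adjusted p = 0.23). The ratio of the first IMP sequence to Transformer-2 was 0.90 to 1.06 in males and 0.63 to 0.73 in females, a log2 difference of 0.50. For the second IMP sequence it was 0.82 to 0.93 and 0.65 to 0.67, a log2 difference of 0.38. Neither pair of ranges overlapped, in ratios chosen after the values were seen. Each exact two-sided permutation p was 0.10, the smallest that 3 against 3 allows (0.12 after Benjamini-Hochberg adjustment over the 6 ratios computed), so the design cannot reach 0.05 for these ratios.

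Sex-lethal is the master switch of sex in Drosophila, and in the silkworm it is needed to form the sperm without a nucleus. TRINITY_DN1319_c0_g1_i25_1 had the highest level of the 4 Sex-lethal sequences. Its Swiss-Prot match is Sex-lethal, its NR match is the serine protease gd, and its Pfam domains are RNA recognition motifs and a trypsin domain, so it joins features of unlike proteins. It had 12.4, 14.9 and 14.6 FPKM in males and 10.9, 10.6 and 13.5 FPKM in females. Male 1 lay below female 3, so the sexes overlapped. The log2 fold change was 0.24 (95% interval -0.04 to 0.52, limma adjusted p = 0.27).

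The other 3 Sex-lethal sequences match the same NR protein and may be pieces of 1 messenger, but they did not follow each other across libraries. TRINITY_DN18324_c0_g2_i1_1 was even, with 2.35 to 3.08 FPKM in males and 2.48 to 2.78 FPKM in females. TRINITY_DN13745_c1_g1_i1_1 had 1.05, 3.48 and 3.05 FPKM in males and 3.22, 2.75 and 0.89 FPKM in females. Its low libraries were male 1 and female 3. TRINITY_DN6654_c1_g1_i1_2 had 1.95, 3.12 and 1.44 FPKM in males and 3.91, 0.88 and 0.85 FPKM in females. Its high libraries were female 1 and male 2. The last of these had a 95% interval of the log2 fold change from -0.82 to 1.35, so differences of more than the size seen for IMP in either direction fall inside it. The 3 limma adjusted p-values were 0.93, 0.92 and 0.78.

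Doublesex and its relatives share the DM DNA-binding domain, first known from doublesex of Drosophila and mab-3 of the worm. All 3 sequences with that domain in the authors' Pfam annotation were members. The NR names were of relatives (DMRT2 or DMRTA2), Swiss-Prot gave 1 of them the name of another relative, dmd-4, and neither database named any as doublesex itself. TRINITY_DN6229_c0_g1_i1_2, named doublesex- and mab-3-related transcription factor 2, had 5.05, 5.33 and 5.26 FPKM in males and 2.37, 4.98 and 3.98 FPKM in females. The males were tightly grouped and lay just above the highest female, while the females spread widely (coefficient of variation 2.76% in males and 34.8% in females). The log2 fold change was 0.42 (95% interval -0.11 to 0.95, limma adjusted p = 0.32). It was 0.07 between males 2 and 3 and female 2, and 0.56 between male 1 and females 1 and 3.

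The remaining DMRT sequences carry the DMRTA2 name in NR, of a factor that patterns the brain in vertebrates. TRINITY_DN12182_c0_g2_i1_2, with the DMRTA motif, had 2.15, 1.76 and 2.51 FPKM in males and 1.52, 2.26 and 1.63 FPKM in females, which overlap (log2 fold change 0.17, limma adjusted p = 0.71). TRINITY_DN12182_c0_g1_i1_2, with the DM domain, was under the filter at 0.69, 0.69 and 0.42 FPKM in males and 0.15, 0.24 and 0.28 FPKM in females. All males exceeded all females, and without a filter its log2 fold change was 0.39 (SE 0.20, limma adjusted p = 0.32). TRINITY_DN18026_c0_g2_i1_1 reached 2.06 FPKM in male 2 and at most 0.71 FPKM in any other library, and was listed at 0 in male 1 and female 3. A sequence outside the rule, TRINITY_DN18026_c0_g1_i1_1, has the KOG description Transcription factor Doublesex and was picked after its values were seen. Its Pfam annotation is the DMRTA motif, and it comes from the same assembly cluster as TRINITY_DN18026_c0_g2_i1_1. The KOG name alone therefore does not mark it as doublesex itself. It had 1.67, 1.30 and 0.99 FPKM in males and 0.36, 0.42 and 0.62 FPKM in females. The sexes did not overlap, but it too was under the filter, and without a filter its limma adjusted p was 0.19 (log2 fold change 0.66, SE 0.24).

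Fruitless, a zinc finger factor that shapes male courtship circuits in Drosophila through sex-specific splicing, was represented by 3 sequences with no Pfam domain. TRINITY_DN2574_c0_g2_i1_1 had 1.94, 2.96 and 1.70 FPKM in males and 1.54, 1.73 and 1.22 FPKM in females. Female 2 lay just above male 3. TRINITY_DN2574_c0_g3_i1_1, from the same assembly cluster, had means of 1.82 FPKM in both sexes. Their log2 fold changes were 0.35 (95% interval -0.23 to 0.92) and -0.0034 (95% interval -0.52 to 0.51), with limma adjusted p-values of 0.46 and 0.99. The last, TRINITY_DN16527_c2_g1_i1_2, was under the filter and was listed at 0 in male 2 and female 2, with up to 1.55 FPKM in male 1. Sex-specific exons of fruitless and doublesex could not be followed, because the table gives 1 value per assembled sequence.

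**Figure D2:**
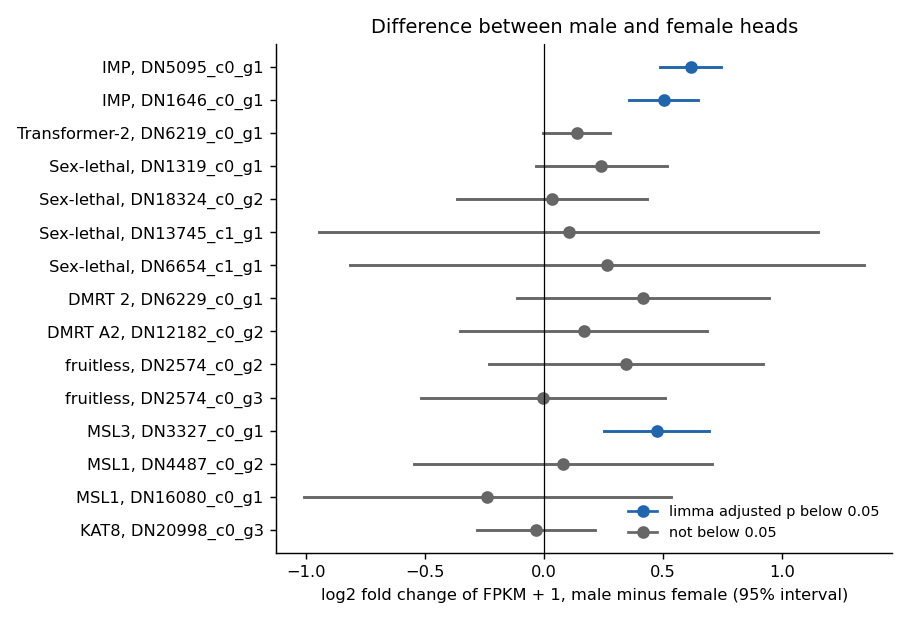
Log2 fold change of FPKM + 1, male minus female, of the 15 tested members with 95% intervals from limma. The intervals of the 2 IMP sequences and MSL3 (blue) lie above 0, and those of the low Sex-lethal, fruitless and MSL1 sequences are wide and span 0.

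The MSL complex consists in Drosophila of the scaffold MSL1, the ubiquitin ligase MSL2, the chromodomain protein MSL3, the acetyltransferase MOF and the helicase MLE, together with roX RNAs. Versions of the complex without the RNAs occur in both sexes of mammals. MSL3 differed between the sexes here. TRINITY_DN3327_c0_g1_i6_1, with the MRG domain, had 7.77, 8.01 and 7.81 FPKM in males and 4.91, 5.54 and 5.72 FPKM in females. The 3 males were close together and above every female. The means were 7.86 ± 0.13 and 5.39 ± 0.43 FPKM (SD, n = 3 each), 1.46 times as high in males. The log2 fold change of 0.47 had an SE of 0.09 and a limma adjusted p of 0.034. The difference was 0.45 and 0.48 within the library sets. The call ended when any one of the 6 libraries was left out, with limma adjusted p-values of 0.064 to 0.12 at log2 fold changes of 0.42 to 0.51, and with the library sets as a model term (adjusted p = 0.092).

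KAT8, the MOF acetyltransferase, was not called. TRINITY_DN20998_c0_g3_i2_1, with the MYST zinc finger and a chromodomain-like knot, had 6.38, 6.215 and 6.14 FPKM in males and 7.13, 6.44 and 5.71 FPKM in females. The male values fell inside the female range. The log2 fold change was -0.03 (95% interval -0.28 to 0.22, limma adjusted p = 0.89). KAT8 also works outside the MSL complex, in the NSL complex.

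The MSL1 name was on TRINITY_DN4487_c0_g2_i1_2 and TRINITY_DN16080_c0_g1_i5_1, which match the same NR protein and both carry the PEHE domain that binds MOF. The first had 2.92, 2.62 and 3.002 FPKM in males and 1.54, 2.996 and 3.74 FPKM in females. The second had 1.21, 1.45 and 1.67 FPKM in males and 2.41, 2.71 and 0.87 FPKM in females. In both, the females spread to either side of the males: female 1 was lowest in the first and female 3 in the second. Their sum was 4.13, 4.07 and 4.67 FPKM in males and 3.95, 5.70 and 4.61 FPKM in females, which overlap. Their limma adjusted p-values were 0.89 and 0.72, with 95% intervals of -0.55 to 0.71 and -1.01 to 0.53.

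MSL2 and MLE are not members, since their descriptions use other words (E3 ubiquitin-protein ligase MSL2 and Dosage compensation regulator). They were added after their values were seen, to complete the complex. MSL2 (TRINITY_DN23831_c0_g1_i1_1) had 3.29 ± 0.31 FPKM in males and 3.21 ± 0.07 FPKM in females (SD, n = 3 each), with a log2 fold change of 0.02 (95% interval -0.31 to 0.36, limma adjusted p = 0.94). MLE (TRINITY_DN11074_c0_g1_i6_1) had 9.48 ± 0.49 and 9.18 ± 0.50 FPKM, a log2 fold change of 0.04 (95% interval -0.15 to 0.23, limma adjusted p = 0.80). For MLE the upper bound lies below the lower bound of the MSL3 interval, 0.25.

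The difference between MSL3 and its partners was tested within libraries. The pairs were chosen after the values were seen, when MSL3 was called and these partners were not. Their separation was therefore largely set in advance and adds no support of its own. MSL1, whose female values spread to either side of the males, was not among them. The ratios thus do not cover the whole complex. The ratio of MSL3 to KAT8 was 1.22, 1.29 and 1.27 in males and 0.69, 0.86 and 1.002 in females, a log2 difference of 0.58. The log2 difference was 0.52 for the ratio to MSL2 and 0.50 for the ratio to MLE. In all 3 ratios every male exceeded every female. Each exact two-sided permutation p was 0.10, the smallest that 3 against 3 allows (0.12 after adjustment over the 6 ratios), so the unequal change of these subunits could not pass 0.05 in this design. These ratios compare levels within a library and do not depend on how libraries are scaled.

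**Figure D3:**
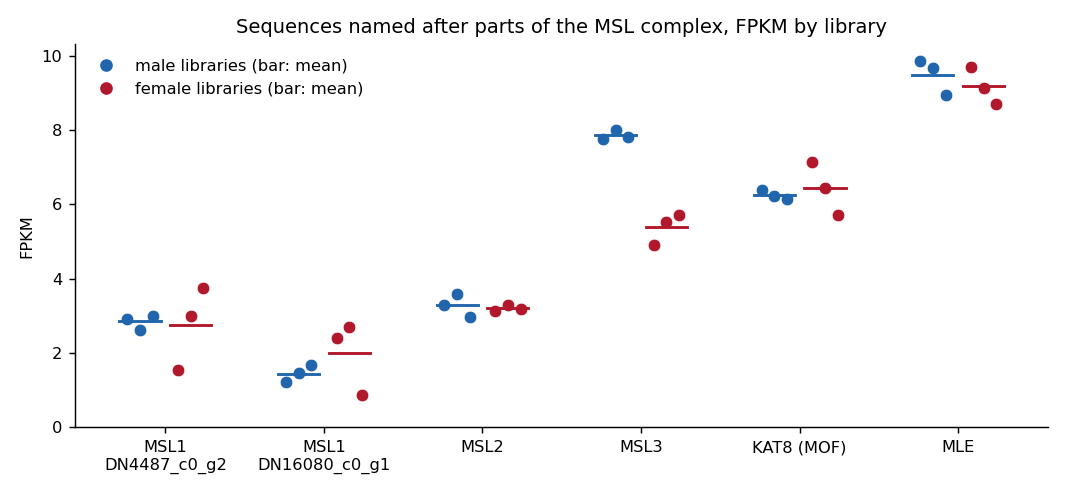
FPKM by library of the sequences named after parts of the MSL complex, with males in blue, females in red and means as bars. MSL3 is the only one of the 6 sequences shown whose male and female values do not overlap.

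FPKM is scaled by length, so the values of the member sequences can be ordered. A sequence may be a piece of a messenger or join unlike ones, so this is not an order of gene levels. Transformer-2 (29.9 to 36.4 FPKM over the 6 libraries) and both tested IMP sequences (21.2 to 35.7 and 19.6 to 31.3) overlapped each other. The Sex-lethal sequence with recognition motifs (10.6 to 14.9) stood below them in every library. MSL3 (4.91 to 8.01) and KAT8 (5.71 to 7.13) followed, with ranges that overlap. DMRT2 (2.37 to 5.33) lay below every KAT8 value and above only the lowest MSL3 value, 4.91 in female 1, at its upper end. The other 8 tested members had means of 1.72 to 2.80 FPKM, near the median of 2.51 FPKM of all sequences tested. The coefficients of variation within a sex were 2.50% to 5.80% in the tested IMP sequences, against a median of 25.1% in males and 28.5% in females over all sequences tested. The low Sex-lethal sequence TRINITY_DN6654_c1_g1_i1_2 had 39.8% in males and 93.5% in females.

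**Figure D4:**
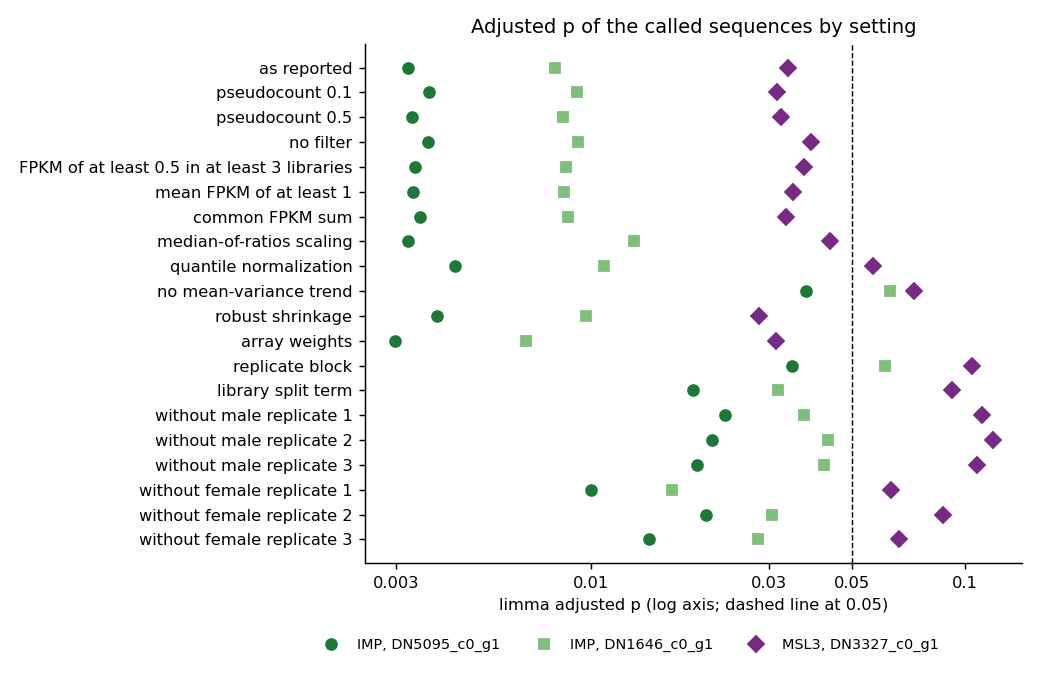
Limma adjusted p of the 3 called members under the reported setting and 19 alternatives, on a log axis with the threshold of 0.05 dashed. The IMP sequence DN5095_c0_g1 stays left of the line throughout, DN1646_c0_g1 crosses it under 2 alternatives and MSL3 under 10.

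Genes that work beside these members were described by 5 lists matched on description words. Together they held 133 sequences, of which 130 were tested, 8 were called higher in males and 4 in females (9.23%, against 7.11% of all sequences tested called in either direction). The median log2 fold change was 0.05, as in all sequences tested. Scaling by the median of ratios turned the split to 3 higher in males and 7 in females. The count of 12 fell to 2 without male 1, to 5 without male 2, to 3 without any one of male 3, female 2 or female 3, and to 7 without female 1. The hnRNP K homolog and Mediator subunit 7, described below, kept their call without any one of the 6 libraries, and bric-a-brac 1-like lost it without male 1 or male 2. The calls of each of the other 9 ended without male 1, without female 2 and without female 3, and with the library sets as a term.

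The m6A writers methylate adenosines in messengers, and in Drosophila they help Sex-lethal splice its own transcript. The list of writers and Sex-lethal cofactors also takes in YTH-domain readers of the mark, U1 small nuclear ribonucleoprotein A and rRNA methyltransferases. None of its 17 tested sequences was called, and 4 had an unadjusted limma p below 0.05, near the background of 23.3%. Virilizer, first found through its effect on sex in flies, had 9.64 FPKM in males and 8.91 FPKM in females, a log2 fold change of 0.10 (limma adjusted p = 0.53). The female-lethal(2)D sequence, whose Drosophila protein is a Sex-lethal cofactor, had 12.96 and 11.8 FPKM (0.12, limma adjusted p = 0.46). Methyltransferase-like protein 14, a core of the writer, had 20.8 FPKM in males and 16.2 FPKM in females without overlap, but did not pass (0.34, limma adjusted p = 0.060). The most abundant of the list was the rRNA methyltransferase ZCCHC4, with 28.3 ± 2.49 and 29.6 ± 3.74 FPKM (SD, n = 3 each). The sex signal genes, which in Drosophila count X chromosomes and set the Sex-lethal promoter, had 0 of 9 tested called, and 3 had an unadjusted limma p below 0.05, where 23.3% of all sequences tested had one. Their most abundant member was a groucho corepressor, with 18.4 ± 0.94 FPKM in males and 15.4 ± 1.21 FPKM in females (log2 fold change 0.25, limma adjusted p = 0.11).

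The list matched on names of partners of MOF and the MSL proteins gave 1 call in each direction among 18. It also takes in unlike proteins caught by part of a name. Examples are WD repeat-containing protein 55, F-box/WD repeat-containing protein 5 and DNA topoisomerase 2-binding protein 1, none of them called. A sequence named mortality factor 4-like protein 1 (TRINITY_DN12780_c0_g1_i4_1), a chromodomain relative of MSL3 that shares its MRG domain, was higher in males (19.8 ± 1.48 against 15.1 ± 1.05 FPKM), by 0.37 on the log2 scale (limma adjusted p = 0.045). Other sequences of that name were not called and went in opposite directions. TRINITY_DN12489_c0_g2_i1_2 was lower in males without overlap (1.93 to 2.67 against 2.99 to 3.58 FPKM, log2 fold change -0.38, limma adjusted p = 0.25). TRINITY_DN21600_c1_g1_i1_1 was higher in males without overlap (0.88, limma adjusted p = 0.11). Microspherule protein 1, part of the NSL complex of MOF, was higher in females (21.4 ± 1.36 against 27.9 ± 1.63 FPKM), with a log2 fold change of -0.37 (limma adjusted p = 0.031). Scaling by the median of ratios ended the first of these calls and kept the second. NSL complex subunit 3 had 6.52 FPKM in males and 7.03 FPKM in females, a log2 fold change of -0.10 (limma adjusted p = 0.58).

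Of 30 sequences in the list of SR and hnRNP splicing regulators, 2 were called higher in each sex. The list also takes in RNA-binding proteins 10, 12, 15B, 18 and 19 and an SRSF protein kinase. CUGBP and far upstream element-binding proteins are in it too. The hnRNP K homolog TRINITY_DN763_c0_g1_i14_2, like IMP a KH-domain protein, had 34.8, 36.6 and 36.6 FPKM in males and 23.5, 24.7 and 25.8 FPKM in females. No female came near the lowest male, and the difference of 0.53 on the log2 scale was called (SE 0.05, limma adjusted p = 0.0050). SR splicing factor 1B was also higher in males (0.36, limma adjusted p = 0.030), a call that median-of-ratios scaling ended. CUGBP Elav-like family member 1 (-0.46, limma adjusted p = 0.031) and SR splicing factor 3 (-0.31, limma adjusted p = 0.035) were higher in females. The far upstream element-binding proteins, the family to which PSI of flies is related, had 2 sequences with log2 fold changes of 0.11 (limma adjusted p = 0.31) and -0.11 (limma adjusted p = 0.49).

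Of 57 tested Mediator subunits, bric-a-brac and related factors, 5 were higher in males and 1 in females. Intersex, the partner of doublesex, is itself a Mediator subunit in Drosophila, subunit 29, and bric-a-brac is a gene that doublesex controls there. The sequence named Mediator subunit 29 in Swiss-Prot (TRINITY_DN3186_c0_g1_i2_1) had means of 21.1 FPKM in males and 19.8 FPKM in females. Its male and female values overlapped, with the lowest value, 13.6 FPKM, in female 1. It was not called (log2 fold change 0.12, limma adjusted p = 0.77). Bric-a-brac 1-like (TRINITY_DN9019_c0_g1_i10_2) had 6.16, 6.91 and 5.93 FPKM in males and 3.004, 2.80 and 3.10 FPKM in females. The sexes were far apart, and the log2 difference was 0.88 (SE 0.12, limma adjusted p = 0.010). Mediator subunit 7 (TRINITY_DN528_c0_g1_i2_1) was higher in females, with 38.8, 36.1 and 40.8 FPKM in males and 63.4, 54.5 and 56.6 FPKM in females. The sexes were again separate (log2 fold change -0.58, SE 0.07, limma adjusted p = 0.010). The other male calls named by the rule were Mediator subunit 9 (0.38), Mediator subunit 16 (0.38) and a bric-a-brac 2 sequence (0.37), with limma adjusted p-values of 0.026, 0.032 and 0.031. The last is bric-a-brac 2 in NR but longitudinals lacking-like in Swiss-Prot. TRINITY_DN6970_c0_g1_i2_1, bric-a-brac 2 in both databases, was not called (0.64, limma adjusted p = 0.23). Nor was TRINITY_DN429_c3_g1_i11_1, bric-a-brac 1 in both (-0.06, limma adjusted p = 0.80). With median-of-ratios scaling the calls of Mediator subunits 9 and 16 ended.

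**Figure D5:**
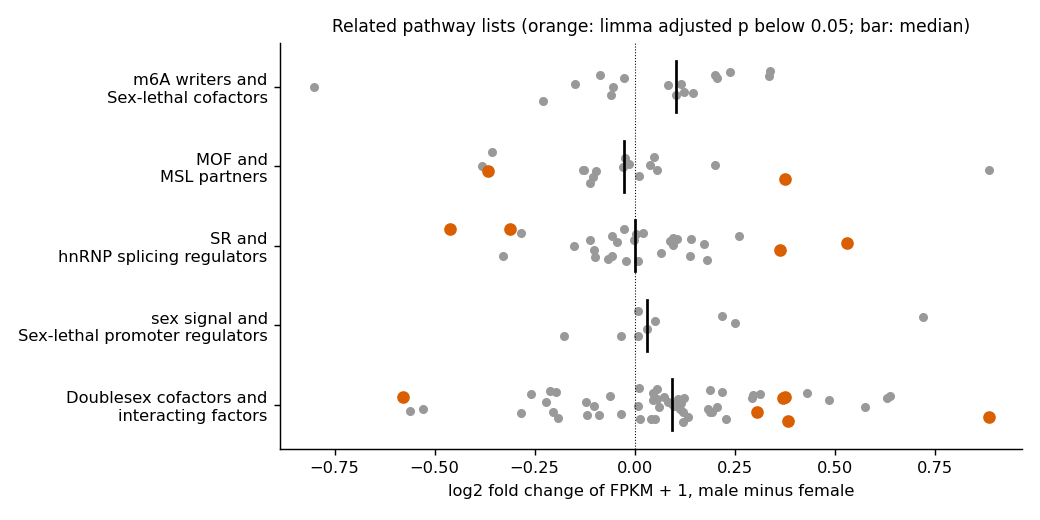
Log2 fold change of FPKM + 1, male minus female, of every tested sequence in the 5 related lists, with called sequences in orange and the median of each list as a bar. Calls lie on both sides of 0, and the list medians are between -0.03 and 0.10.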

How the data were processed

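Stranded mRNA libraries were built from Trizol-extracted total RNA, per the labels' protocols. Trimmomatic, HTSeq and R 3.2.0 are listed, with no role, per the submitters' processing notes; the sources used here give no aligner, assembler or filter. The deposited FPKM values were calculated by the authors per assembled sequence and library. Sequence names have the Trinity form. No genome was used.

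Values became log2(FPKM + 1). The 35198 sequences with FPKM of at least 1 in at least 3 libraries were compared between the sexes with limma 3.58.1 in R 4.3.3 (mean-variance trend, no block, no minimum fold), tested on simulated data. Within-library ratios were compared by an exact permutation test added after the values were seen. The members and lists were chosen with earlier results of these data known. The text names all members, up to 4 called sequences per direction in each related list and otherwise its most abundant one; further pathway partners were named after their values were seen. Word matching also takes in unlike proteins. Alternatives covered pseudocount, filter, scaling, variance model, weights, replicate block, library sets, annotation column and each library left out.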

Additional observations from a re-analysis of the deposited data

How the results depend on the processing

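The 3 calls among members stayed 3 with pseudocounts of 0.1 and 0.5, other filters or none, a common FPKM sum, median-of-ratios scaling, robust shrinkage and array weights, and were 2 with quantile normalization, with the library sets as a term and without any one of the 6 libraries. They were 1 without a mean-variance trend, and 1 among the 10 tested members found through the NR descriptions, since Swiss-Prot alone named the tested IMP sequences. No pairing of same-numbered libraries is stated, and the numbers were not taken as pairs. Deviations of same-numbered libraries correlated at 0.11, 0.12 and -0.05. Male 1 and female 1 share a library set, as do male 2 and female 2, but male 3 and female 3 do not. The correlations therefore cannot decide whether the libraries are paired. A replicate block left 1 member, 2 related sequences and 631 of all sequences called. The IMP sequence DN1646_c0_g1 missed the threshold without a trend (limma adjusted p = 0.063) and with the block (0.061); the other IMP sequence was called under all 19 alternatives (0.0030 to 0.038). The 12 related calls became 2 without a trend, 3 with the library sets and 2 to 7 with 1 library left out; the 2501 calls of all sequences became 1541, 1136 and 822 to 1776. Uncalled members near 0 changed sign: Sex-lethal DN18324_c0_g2 to -0.012 with median-of-ratios scaling, -0.0028 with quantile normalization and -0.017 with the library sets, Sex-lethal DN13745_c1_g1 to -0.14 with the library sets, and fruitless DN2574_c0_g3 to 0.0069 with a common sum and 0.016 with array weights. With 1 library left out they spanned -0.040 to 0.10, -0.25 to 0.46 and -0.085 to 0.095, MSL1 DN4487_c0_g2 -0.18 to 0.27, and KAT8 -0.10 to 0.035. The depth behind low FPKM values is unknown, and spread was widest there.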
